A study of Mus musculus with 22 samples.

Results

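The core spliceosome genes of the sorted colon crypt cells were taken as every gene whose symbol starts with Snrp, Sf3a or Sf3b, U2af, Prpf and a digit, or Lsm and a digit. Of 24421 genes in the count files, 50 matched, and all 50 entered the test. RNA was sequenced from crypt cells of wild type male C57BL/6N mice, 5 to 7 weeks old and untreated, in 22 libraries of 6 cell types. All cells were live, Epcam+ and negative for Cd31 and Cd45. Stem (n = 3) were Cd44highest, Cd24low and Ckit-, absorptive progenitors (AbsPro, n = 3) were Cd44med/hi, Cd24low and Ckit-, and the gate of secretory progenitors, deep crypt secretory cells and goblet cells (SecPDG, n = 4) was Cd44hi, Cd24med and Ckitmed. Tuft cells (n = 5) were Ckit+ and Cd24hi, enterocytes (n = 5) were Cd44low/- and Cd24-, and enteroendocrine cells (EEC, n = 2) were Cd44low/- and Cd24+. Libraries came from independent mice and sorts, and all but those of Stem and AbsPro pooled several mice, so that the spread between libraries of the pooled types is that between pools.

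The spliceosome removes introns from pre-mRNA and is built anew on each intron from small nuclear ribonucleoproteins (snRNPs), particles of a small nuclear RNA and its proteins. The U1 snRNP marks the 5′ splice site, U2AF and the U2 snRNP mark the 3′ splice site and the branch point, and the tri-snRNP of U4, U6 and U5 joins before the reaction. Most of these proteins are made in every dividing and differentiated cell, and the demand for them is known to be high in cells that grow and divide, as stem and progenitor cells at the crypt base do.

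The 50 genes were grouped by role into 8 proteins of the Sm ring, 4 proteins specific to U1 or U2, 9 of the SF3a and SF3b complexes, 3 of U2AF, 13 Prp proteins, 7 of the LSm2-8 ring and 6 other LSm proteins. They lie on 15 chromosomes. Their mean level over all libraries ran from 2.84 to 1024 normalized counts per kb of exon, with a median of 166. Snrpn and Snrpf had means under 50 normalized counts, the minimum for a call, and the other 48 reached it. Normalized counts are counts divided by a library's TMM-scaled size, set to the mean size of the libraries.

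Counts on genes ran from 4122122 (EEC 1) to 22462518 (Stem 2) per library. Reads outside annotated genes made up 41.3% to 49.8% of reads on or off genes in Stem, AbsPro and SecPDG libraries, 43.9% to 68.4% in Tuft, 67.2% to 83.3% in Enterocyte and 64.9% and 89.9% in EEC libraries. Stem markers (6 genes) summed to 1756 to 2082 CPM (counts relative to the total on genes) in Stem and to 148 to 892 CPM in the other libraries, and tuft markers (6 genes) to 1988 to 5232 CPM in Tuft. Goblet markers (8 genes) stood at 60645 to 86665 CPM in Tuft and 24544 to 52007 CPM in Enterocyte libraries against 53656 to 145951 CPM in SecPDG. Enteroendocrine markers (7 genes) summed to 80107 to 107568 CPM in EEC and 905 to 3737 CPM in Enterocyte, and tuft markers to 521 and 526.5 CPM in EEC. Enterocyte markers (6 genes) stood at 3199 and 8859 CPM in EEC and 4390 to 7306 CPM in Enterocyte against 870 to 1705 CPM in Stem. Immune markers (10 genes) summed to 10.9 to 13.4 CPM in Stem, 91.1 to 273 CPM in Tuft, 30.4 to 137 CPM in Enterocyte and 43.3 and 367 CPM in EEC. In the same order, stromal markers (8 genes) summed to 4.41 to 15.4, 7.37 to 59.8, 33.8 to 174 and 19.0 and 338 CPM, and endothelial markers (5 genes) to 0.67 to 1.23, 5.12 to 34.3, 20.6 to 80.7 and 49.0 and 187 CPM. Of these lists, Cd79a and Cldn5 were at 0 in EEC and Cldn5 in Stem. In sorted bulk RNA, fewer cells of a type and less RNA per cell cannot be told apart, and the part of reads outside genes and of other cell types in the results was not tested.

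Core spliceosome genes were highest in Stem and lowest in Enterocyte and EEC. Summed over the 50 genes they took 0.490% to 0.554% of gene counts in Stem. The EEC libraries were at 0.267% and 0.281%, the Enterocyte libraries between 0.272% and 0.344%, and the Tuft libraries between 0.332% and 0.398%. The progenitors had shares from 0.348% to 0.435% in SecPDG and 0.408% to 0.450% in AbsPro. The 3 Stem libraries lay above every other library. The EEC libraries overlapped with the Enterocyte libraries, these with Tuft, Tuft with SecPDG, and SecPDG with AbsPro. Of the 48 genes at the minimum mean, 35 had their highest mean in Stem, which is 72.9% of them against 22.9% of the 13188 genes at that mean. The lowest mean was in EEC for 27 genes (56.3% against 36.2% of all genes) and in Enterocyte for 15 (31.3% against 20.9%). These shares are descriptions without a test.

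**Figure D1:**
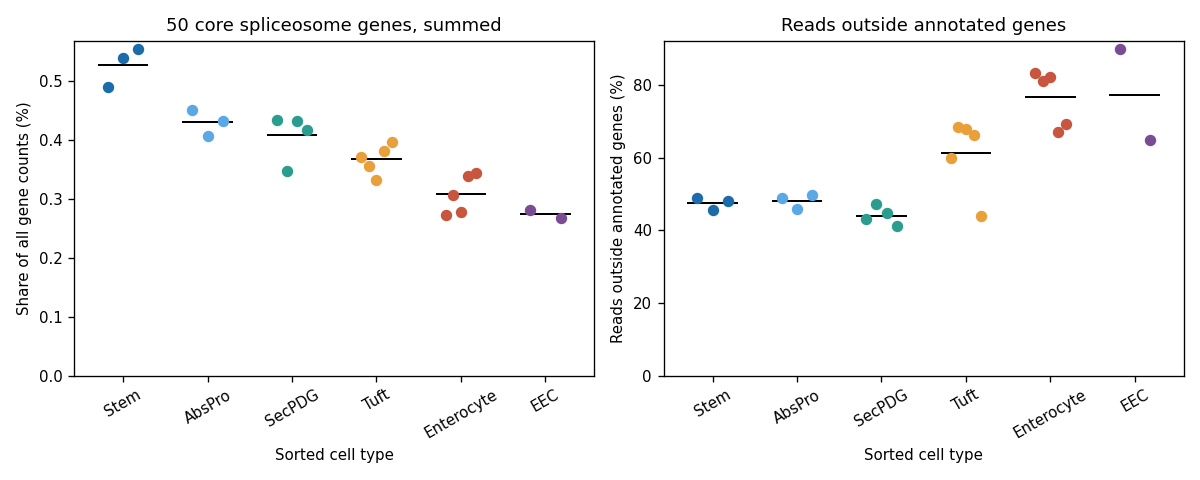
Share of all gene counts taken by the 50 core spliceosome genes (left, %) and share of reads outside annotated genes (right, %) in each library by sorted cell type, with a bar at the group mean. The share of the genes was highest in the 3 Stem libraries (0.490% to 0.554%), and reads outside genes were most frequent in Enterocyte and EEC libraries.

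**Figure D2:**
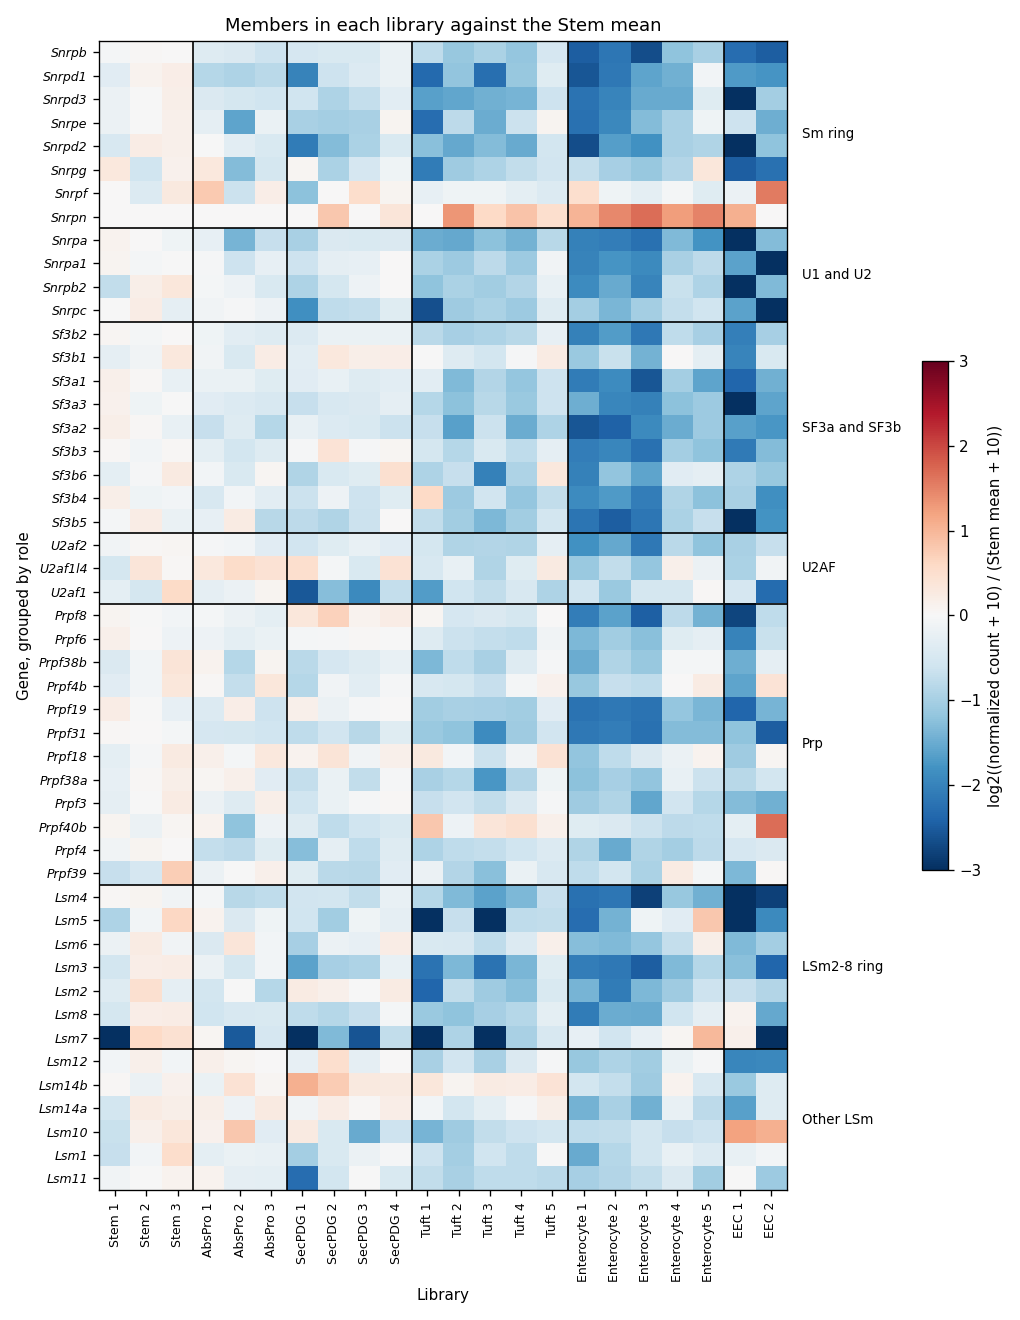
Level of 49 of the 50 genes (lines, grouped by role) in each of the 22 libraries (columns), as the log2 ratio to the Stem mean with 10 normalized counts added to both. Blue marks levels below Stem, which fill most of the Enterocyte and EEC columns, and the red line of Snrpn rests on at most 19 counts in a library.

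Each of the 5 other cell types was compared with Stem, and a gene counted as called where edgeR's quasi-likelihood F test, run over 22781 genes, gave a Benjamini-Hochberg adjusted p under 0.01 and the gene had the minimum mean. In Enterocyte against Stem, 21 of 48 genes were lower and 0 higher, where 13.7% of all genes were called lower and 9.68% higher. DESeq2 called 14 lower and 0 higher there, and 0 genes were higher at an unadjusted p under 0.05. Shares of all genes called are those of edgeR throughout, and none is given for DESeq2. In EEC against Stem, 18 were lower and 0 higher, against 12.9% and 11.4% of all genes, with 1 higher at an unadjusted p under 0.05 (Prpf40b), and DESeq2 called 17 lower and 2 higher. The direction was shared beyond the called genes, with 47 of 48 genes below 0 in Enterocyte and 46 in EEC. The median log2 fold change was -1.01 in Enterocyte and -1.39 in EEC, against -0.30 and -0.33 over all genes at the minimum mean.

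In the progenitors the genes stayed closer to Stem. In AbsPro edgeR called 0 of 48 genes, where 0.629% of all genes were called (0.0379% lower and 0.591% higher), 0 had an unadjusted p under 0.05 (10.4% of all genes), and DESeq2 called 0. In SecPDG edgeR called 0, against 5.36% of all genes (1.19% lower and 4.17% higher), with 4 at an unadjusted p under 0.05 (22.2% of all genes) and 0 called by DESeq2. The median log2 fold change was nonetheless below that of all genes, at -0.23 in AbsPro (all genes 0.04) and -0.40 in SecPDG (all genes -0.05), and 41 and 39 of 48 genes lay below 0. Tuft cells stood between, with a median of -0.83 (all genes -0.09), 45 of 48 genes below 0 and 22 of 48 at an unadjusted p under 0.05, against 35.5% of all genes. Here edgeR called 0 genes, where it called 11.1% of all genes (3.5% lower and 7.63% higher). DESeq2 called 8, all lower, namely Lsm4, Snrpa, Snrpd3, Sf3a1, Sf3a3, Sf3b2, Prpf19 and Prpf31. Whether these 8 exceed the share of all genes called by DESeq2 cannot be told from the values given. The count by edgeR rose when single libraries were left out, also libraries of other cell types, which share the estimate of the spread and the scaling. It was 11 without EEC 1, 7 without EEC 2, 5 without Tuft 5 (Lsm3, Lsm4, Prpf31, Snrpd1 and Snrpd3), 4 without Enterocyte 1, 3 without SecPDG 2 and 0 to 2 without each other library.

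Counted by whole groups, every library lay below every Stem library for 11 of the 48 genes in AbsPro (10.5% of all genes), 15 in SecPDG (15.7%), 20 in Tuft (18.2%), 26 in Enterocyte (26% of all genes) and 35 in EEC (34.9%). Above every Stem library lay 0 in AbsPro (14.2% of all genes), 2 in SecPDG (14.6%), 0 in Tuft (17.1%), 0 in Enterocyte (21.4%) and 1 in EEC (20.8%). The 5 comparisons share the 3 Stem libraries, so that their values are set side by side only. With DESeq2's size factors in edgeR the median of all genes moved to 0.36 in Enterocyte and 0.53 in EEC and that of the core spliceosome genes to -0.48 and -0.59, and 12 genes were called lower in Enterocyte and 12 in EEC, with 1 higher. With TMM factors from abundant genes their medians were -0.36 and -0.35 (all genes 0.57 and 0.85). Folds of single genes below are those with TMM factors from all genes tested, and their size moves with the fit. Over the alternatives run, the log2 fold change in Enterocyte ran from -2.17 to -1.22 for Snrpa and from -2.22 to -1.18 for Lsm4. Without the 4 libraries with over 80% of reads outside genes (Enterocyte 1, 2 and 3 and EEC 1), 11 genes were called lower in Enterocyte, all among the 21, and 14 were called in Tuft. In a fit of Stem and EEC libraries alone, 1 gene was called in EEC. The count in Enterocyte was 12 without Stem 1, 13 without Enterocyte 3 and 32 without EEC 1.

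**Figure D3:**
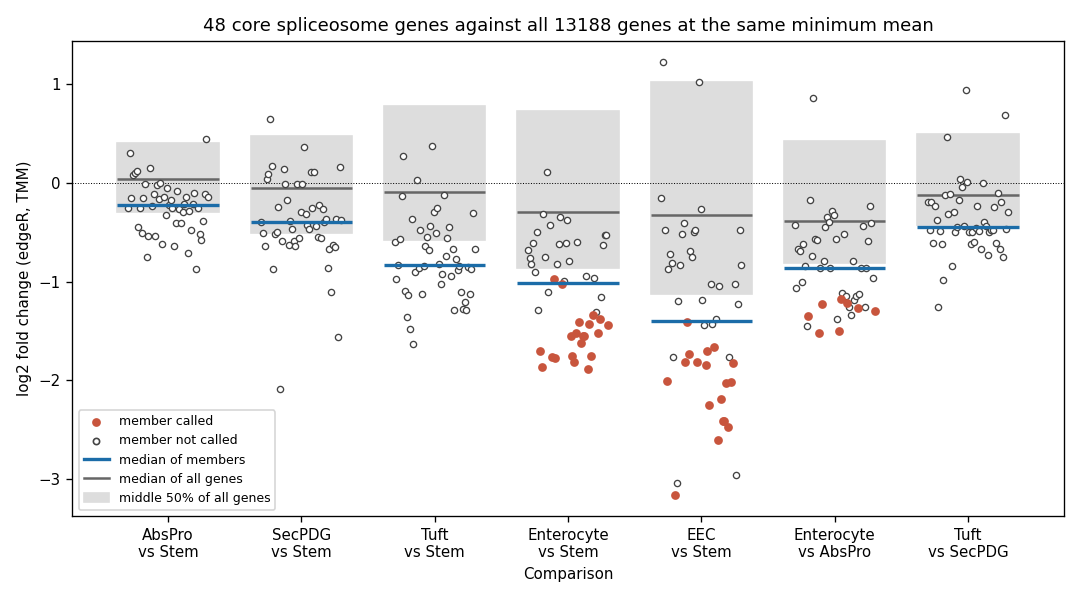
Fitted log2 fold change (vertical axis, edgeR with TMM factors) of the 48 core spliceosome genes at the minimum mean in 7 comparisons, filled where called. Blue lines are the medians of these genes and grey lines and boxes the median and middle 50% of all genes at that mean, and the blue line lies below the grey one in each comparison.

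The Sm ring proteins form the ring that holds the RNA of the U1, U2, U4 and U5 snRNPs. Of the 6 at the minimum mean, 3 were lower in Enterocyte and 3 in EEC, namely Snrpb, Snrpd2 and Snrpd3 in both. Counts by role, here and below, rest on few genes. Beside them, 13.7% of all genes were called lower in Enterocyte and 12.9% in EEC. Snrpb (chr2:130171414-130179403, minus strand, GRCm38, the assembly of mm10), which encodes SmB, was the most abundant of the ring at 822 normalized counts per kb. It stood at 2684, 2883 and 2834 normalized counts in the Stem libraries, 2129, 2058 and 1825 in AbsPro, 1976, 2042, 2038 and 2444 in SecPDG and 1651, 1263, 1455, 1255 and 1982 in Tuft. The Enterocyte libraries had 496, 615, 433, 1203 and 1418 and the EEC libraries 562 and 494. No library of another cell type reached the lowest Stem library, and Enterocyte 4 and 5 stood apart above the other 3 Enterocyte libraries. The TMM factors of Enterocyte 4 and 5 were 0.925 and 1.00, against 1.57, 1.45 and 1.65 in Enterocyte 1, 2 and 3. Their reads outside genes were 67.2% and 69.2%, against 83.3%, 81.3% and 82.3%. The part of these library differences in the gap was not tested. The log2 fold change of Snrpb was -1.75 ± 0.31 (SE) in Enterocyte (adjusted p = 0.000114) and -2.41 ± 0.44 in EEC (adjusted p = 0.000157), and -0.88 ± 0.31 in Tuft (adjusted p = 0.0345, not called).

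Snrpd3 fell to 265, 312, 439, 437 and 975 in Enterocyte from 1109, 1248 and 1431 in Stem, a log2 fold change of -1.38 ± 0.39 (adjusted p = 0.00728), with Enterocyte 5 nearest to Stem. Gucd1 on the opposite strand covers 6.74% of its exonic bases, and counting did not use strand. Snrpd2 went from 454, 748 and 705 in Stem to 92.2, 194, 172, 319 and 334 in Enterocyte (log2 fold change -1.51 ± 0.43, adjusted p = 0.00782). In EEC the values were -1.82 for Snrpd3 and -2.01 for Snrpd2, and both genes were lower in EEC 1 than in EEC 2. Snrpd1, Snrpe and Snrpg were not called, with log2 fold changes in Enterocyte of -1.31, -1.16 and -0.63. Snrpg had 7 to 208 counts in a library.

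The 2 genes under the minimum mean belong to this ring. Snrpf (chr10:93583029-93589706, minus strand) had normalized counts of 13.8, 7.68 and 18.9 in Stem and 0 to 49 counts in any library. Of its exonic bases 85.4% lie under Ccdc38 and 4933408J17Rik on the opposite strand, and counting without strand cannot assign reads on shared bases to 1 gene. In the splicing data 1 of its exons (chr10:93584030-93584094) had 1369, 1556 and 1318 inclusion reads in the 3 Stem libraries, so its gene count does not stand for its level. Snrpn (chr7:59982495-60140219, minus strand), the SmN paralog that is nearly identical to Snrpb and known from neurons, had 0 counts in all Stem and AbsPro libraries, where a count of 0 allows up to 3 counts in each library. It had at most 19 counts in any library, and its normalized counts in Enterocyte were 10.2, 17.2, 21.9, 13.7 and 18.0. A background estimated from olfactory and vomeronasal receptor genes, which gut epithelium should lack, came to 58.7% of its Enterocyte counts and 240% of its EEC counts, and no fold is given.

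Among the proteins specific to U1 or U2, 3 of 4 were lower in Enterocyte and 4 of 4 in EEC. Snrpa (chr7:27187005-27196271, minus strand), the U1-A protein, had the largest decrease in Enterocyte of all 48 genes. Its normalized counts were 1316, 1225 and 1104 in Stem, 1020.1, 459 and 753 in AbsPro, 616, 903, 877 and 902 in SecPDG, 424, 415, 514, 445 and 682 in Tuft and 289.8, 279.9, 248, 478 and 343 in Enterocyte. In EEC they were 39.8 and 489, and no library outside Stem reached the lowest Stem library. The log2 fold change was -1.89 ± 0.40 in Enterocyte (adjusted p = 0.0007), -2.19 ± 0.55 in EEC (adjusted p = 0.00329) and -1.29 ± 0.40 in Tuft (adjusted p = 0.0182). The call in Enterocyte held in all 32 alternatives run. BC024978 on the opposite strand covers 11.0% of its exonic bases.

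Snrpa1 and Snrpb2 encode U2-A′ and U2-B″, which bind a stem of the U2 RNA together. Snrpa1 went from 841 ± 45.0 (SD, n = 3) in Stem to 312 ± 130.3 (n = 5) in Enterocyte, a log2 fold change of -1.43 ± 0.37 (adjusted p = 0.00412), and to 271 and 47.3 in the EEC libraries (-2.41 ± 0.52, adjusted p = 0.000937). Snrpb2 fell by 2.52 times in Enterocyte (log2 fold change -1.33 ± 0.38, adjusted p = 0.008) and by 4.07 times in EEC, although Stem 1, at 324, lay below Enterocyte 4, at 342. Snrpc, the U1-C protein that steadies the pairing of U1 with the 5′ splice site, was called only in EEC among the comparisons run. It stood at 302, 359.8 and 253 in Stem and at 94.01 and 17.0 in EEC (log2 fold change -2.47 ± 0.71, adjusted p = 0.00785). That call was lost in 12 of 32 alternatives, among them the fits without Stem 1 (adjusted p = 0.0164), without Stem 2 (0.0172) and without EEC 2 (0.0653), and the adjusted p ran from 0.000571 to 0.253 over the alternatives. The background estimate came to 66.0% of the EEC counts of Snrpc. It grows with the exon length used, which was 6521 bases for all annotated exons of Snrpc joined.

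The SF3a and SF3b complexes are the part of the U2 snRNP that settles on the branch point. Of their 9 subunits, 7 were lower in Enterocyte and 5 in EEC. All 3 SF3a subunits were called in both, and Sf3b1 and Sf3b6 in neither. Sf3a2 (chr10:80798198-80804924, plus strand) had 1911, 1733 and 1451 normalized counts in Stem, 1049, 1291 and 936 in AbsPro and 1447, 1284, 1233 and 1074 in SecPDG. In Tuft it had 1053, 543, 1082, 597 and 887, in Enterocyte 279.5, 309.8, 446, 594 and 787 and in EEC 546 and 496. The Enterocyte and EEC libraries lay below all AbsPro, SecPDG and Stem libraries, and the Tuft libraries overlapped with AbsPro, SecPDG, Enterocyte and EEC. Against Stem, Sf3a2 changed by a log2 fold of -1.81 ± 0.31 in Enterocyte (adjusted p = 5.46e-05, called in all 32 alternatives), -1.70 ± 0.42 in EEC (adjusted p = 0.00263) and -1.03 ± 0.31 in Tuft (adjusted p = 0.0162). Plekhj1 on the opposite strand covers 16.1% of its exonic bases.

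Sf3a1, the largest SF3a subunit, went from 4074 ± 525 in Stem (n = 3) to 1213 ± 499 in Enterocyte (n = 5), a fall of 3.36 times, and Sf3a3 from 1891 ± 179 to 659 ± 193, a fall of 2.87 times. The adjusted p-values were 0.000123 and 0.000506. Sf3b2, the most abundant of the 9 at 943 normalized counts per kb, had 10160.2, 9409 and 9785 in Stem and 2402, 3069, 2222, 5792 and 4892 in Enterocyte (log2 fold change -1.41 ± 0.34, adjusted p = 0.00246). In EEC it was not called (-1.43 ± 0.46, adjusted p = 0.0139). Sf3b3 fell by 3.08 times in Enterocyte and 3.17 times in EEC, and in SecPDG its mean of 4673 was near that of Stem at 4327. Sf3b4 was called in Enterocyte alone of the 2 (-1.55 ± 0.37, adjusted p = 0.00229), with 1 Tuft library, at 790, above all Stem libraries.

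Sf3b5, a small subunit, stood at 548, 673 and 497 in Stem, 119, 95.2, 120.1, 289.7 and 353 in Enterocyte and 28.9 and 158 in EEC. The log2 fold change was -1.55 ± 0.42 in Enterocyte and -2.60 ± 0.60 in EEC (adjusted p = 0.00173), and without EEC 1 it was -2.03 in EEC and not called (adjusted p = 0.0153). Sf3b1, which holds the branch point adenosine, was 5567 ± 1219 in Stem and 5115 ± 1131 in Tuft, and 3678 ± 1456 in Enterocyte (-0.60 ± 0.36, adjusted p = 0.158). Its highest mean, 6016, was in SecPDG.

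U2AF reads the 3′ splice site, U2af2 by the polypyrimidine tract and U2af1 by the AG at the intron end. U2af2 (chr7:5062143-5079938, plus strand) was the most abundant at 352 normalized counts per kb and the 1 called member of 3. It had 1987, 2205 and 2217 in Stem, 2100.2, 2004 and 1698 in AbsPro and 603, 728, 474, 1224 and 913 in Enterocyte, a log2 fold change from Stem of -1.44 ± 0.28 (adjusted p = 0.000348). In the 2 EEC libraries it had 1085 and 1318 (-0.83 ± 0.37, adjusted p = 0.0672, not called). U2af1 was lowest in SecPDG, where it had 32.1, 92.0, 55.6 and 140.0 against 191, 162 and 355 in Stem. These libraries did not overlap, yet the adjusted p was 0.105 (log2 fold change -1.56 ± 0.57). Its paralog U2af1l4 was highest in AbsPro, with 482, 573 and 524, and no comparison called it.

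The Prp proteins act at several steps, and 5 of 13 were lower in Enterocyte and 4 in EEC. Prpf19 (chr19:10895231-10909559, plus strand), the ubiquitin ligase at the centre of the Prp19 complex, had 2969, 2514 and 2118 in Stem, 1900.3, 2915 and 1634 in AbsPro and 2796, 2238, 2461 and 2549 in SecPDG. It had 1216, 1292, 1271, 1227 and 1985 in Tuft, 539, 564, 534, 1125 and 976 in Enterocyte and 475 and 965 in EEC. Stem, AbsPro and SecPDG overlapped, and every Enterocyte and EEC library lay below all Tuft libraries. Prpf19 gave a log2 fold change of -1.76 ± 0.31 in Enterocyte (adjusted p = 8.51e-05), -1.81 ± 0.42 in EEC (adjusted p = 0.00174) and -0.01 ± 0.33 in SecPDG (adjusted p = 1).

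Prpf31, Prpf3 and Prpf4 hold the U4/U6 part of the tri-snRNP. Prpf31 had 1608, 1568 and 1512 in Stem and 345, 365, 321, 627 and 630.0 in Enterocyte, and its libraries did not overlap with Stem in any other cell type. Its log2 fold change was -1.77 ± 0.31 in Enterocyte (adjusted p = 7.95e-05), -1.73 ± 0.42 in EEC (adjusted p = 0.00248) and -1.12 ± 0.31 in Tuft (adjusted p = 0.0105). Prpf3 fell by 1.96 times in Enterocyte and 2.65 times in EEC, and Prpf4 by 2.03 times in Enterocyte. In EEC Prpf4 was at 454 and 478 against 598, 686 and 657 in Stem and was not called (adjusted p = 0.302). Prpf6, which bridges U5 and U4/U6, was not called in either (-0.79 ± 0.30 and -1.19 ± 0.40, adjusted p = 0.0311 and 0.0181).

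Prpf8, the large scaffold of the U5 snRNP that holds the catalytic RNA, was the most abundant of all 50 genes at 1024 normalized counts per kb. It had 10280.3, 9570.0 and 9093 in Stem and 12291, 15617, 10454 and 11205 in SecPDG. Each SecPDG library lay above each Stem library, as for 14.6% of all genes, with a log2 fold change of 0.36 ± 0.41 (adjusted p = 0.66, not called). In Enterocyte it had 2292, 3169, 1750.2, 5619.5 and 3597, a log2 fold change of -1.55 ± 0.38 (adjusted p = 0.00263). The EEC libraries differed widely, at 1426 and 5669, and the call was not made there (adjusted p = 0.0228).

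Prpf40b (chr15:99295087-99317018, plus strand), a protein associated with the U1 snRNP, was picked out after its values were seen. It had 443, 367 and 434 normalized counts in Stem, 736, 369.8, 539.7, 587 and 460.1 in Tuft, 321, 303, 261, 236 and 241 in Enterocyte and 334 and 1339.5 in EEC, where EEC 2 lay above every other library of the series and EEC 1 below all Stem libraries. The place of EEC 1 depends on the TMM scaling. Its count was 185 of 4122122 on genes, against 579 of 19900282, 573 of 22462518 and 644 of 22011339 in Stem. Relative to the total on genes, EEC 1 thus lay above all Stem libraries. The log2 fold change in EEC was 1.02 ± 0.44 (adjusted p = 0.0572, not called), 1.53 without EEC 1 (adjusted p = 0.00634, called) and -0.31 without EEC 2. DESeq2 called it higher in EEC (log2 fold change 1.53, adjusted p = 0.00142). Prpf4b, Prpf18, Prpf38a, Prpf38b and Prpf39 were called in no comparison with Stem, with log2 fold changes in Enterocyte from -0.82 (Prpf38a) to -0.35 (Prpf39).

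The LSm2-8 ring binds the 3′ end of the U6 RNA, and Lsm4 stood out among its 7 proteins. Lsm4 (chr8:70673248-70678752, plus strand), the most abundant per length at 719 normalized counts per kb, had 1417, 1476 and 1288 in Stem, 1338, 784 and 819 in AbsPro and 928, 951, 831 and 1195 in SecPDG. It had 771, 551, 449, 538 and 856 in Tuft, 285, 302, 193, 629.6 and 509.6 in Enterocyte and 121 and 190.5 in EEC. Each EEC library lay below each Enterocyte library, and each SecPDG, Tuft and Enterocyte library lay below each Stem library, while AbsPro 1 lay within the range of Stem. Against Stem the log2 fold change of Lsm4 was -3.16 ± 0.47 in EEC (adjusted p = 9.14e-06), -1.86 ± 0.32 in Enterocyte (adjusted p = 6.87e-05) and -1.14 ± 0.32 in Tuft (adjusted p = 0.0121, just above the threshold). In EEC this was the largest decrease among the called genes of the 48, and both calls held in every alternative run.

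Lsm3 was called in Enterocyte (140.5, 133, 105, 242 and 341 against 424, 721 and 729 in Stem, log2 fold change -1.70 ± 0.42, adjusted p = 0.00301). Lsm2, Lsm6 and Lsm8 were not called, with log2 fold changes in Enterocyte of -1.29, -0.76 and -1.10. Lsm5 and Lsm7 were uneven between libraries of a type. Lsm7 had 0 counts in Stem 1, SecPDG 1, Tuft 1 and EEC 2, where 0 allows up to 3 counts, and 65.9, 50.5, 65.8, 83.3 and 168 normalized counts in Enterocyte, and Lsm5 had 0 in Tuft 1 and 7.58 in Tuft 3 against 112 to 117 in the other 3 Tuft libraries. Neither gene was called, and their SE in Enterocyte was 1.45 for Lsm7 and 0.87 for Lsm5.

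The LSm proteins outside the U6 ring work elsewhere, Lsm1 in the cytoplasmic decay ring, Lsm10 and Lsm11 in the U7 snRNP that trims histone mRNAs, and Lsm14a and Lsm14b in P-bodies. Their log2 fold changes in Enterocyte ran from -0.90 (Lsm14a) to -0.50 (Lsm14b), and 1 of the 6 was called lower in EEC (16.7%), near the 12.9% of all genes. The called gene was Lsm12, at 183 and 187 in EEC against 698, 822 and 703 in Stem (log2 fold change -2.003 ± 0.42, adjusted p = 0.000653). Lsm12 was also the most abundant of the 6 at 246 normalized counts per kb. Lsm10 was the exception in direction, with 222 and 201 in EEC above every other library, against 53.5, 102 and 117 in Stem (1.22 ± 0.89, adjusted p = 0.266, not called by edgeR). Lsm14b was highest in SecPDG at 1164, 940.0, 672 and 661, each above each Stem library (481 to 606), as for 14.6% of all genes, and was not called there (adjusted p = 0.238).

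**Figure D4:**
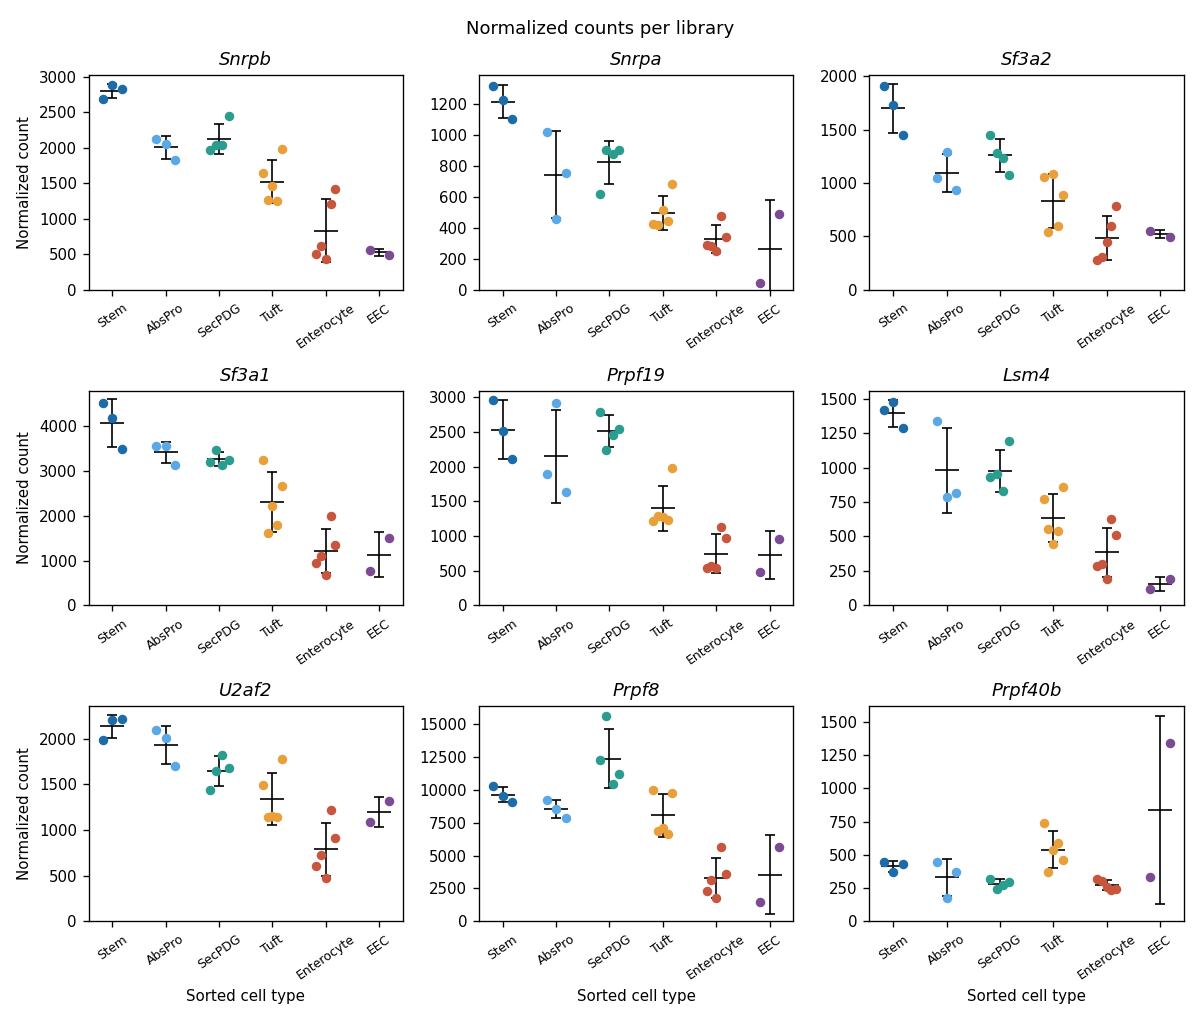
Normalized counts (vertical axes, from 0) of 9 core spliceosome genes in each library by cell type, with the mean and SD of each group as horizontal bars and whiskers. Snrpb, Snrpa and Lsm4 fell from Stem to Enterocyte and EEC, Prpf8 stood highest in SecPDG, and Prpf40b was high in 1 of 2 EEC libraries.

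Enterocyte against AbsPro asks what changed from the absorptive progenitor to the mature cell. Of 48 genes 8 were lower and 0 higher by edgeR, where 8.79% of all genes were called (5.5% lower and 3.29% higher), and DESeq2 called 8 lower and 0 higher. They were Prpf19, Sf3a1, Sf3a2, Sf3b3, Lsm4, U2af2, Snrpb and Prpf31. The largest falls were those of Prpf19 (log2 fold change -1.52 ± 0.31, adjusted p = 0.00147), Sf3a1 (-1.49 ± 0.32, adjusted p = 0.00214) and Lsm4 (-1.35 ± 0.32, adjusted p = 0.00506). The median over the 48 genes was -0.86 against -0.38 over all genes, and in 23 genes each Enterocyte library lay below each AbsPro library (24.1% of all genes). This count was unstable, with 0 genes called without AbsPro 2, 0 without the 4 libraries with most reads outside genes, and 2 to 17 without each other AbsPro or Enterocyte library in turn. Without libraries of other cell types it was 29 without EEC 1, 18 without EEC 2, 23 without Stem 2, 24 without Stem 3, 22 without Tuft 4 and 5 without Tuft 2. The call of Lsm4 was lost in 7 of 32 alternatives and those of Prpf19 and Sf3a1 in 2 each.

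From SecPDG to Tuft 0 of 48 genes were called by edgeR, where 1.55% of all genes were called (0.0607% lower and 1.49% higher), 7 had an unadjusted p under 0.05 (21.1% of all genes), and DESeq2 called 2 lower and 1 higher. The median was -0.45 against -0.13 over all genes, and the libraries did not overlap in 6 genes, of which 5 were lower in Tuft (5.54% of all genes) and 1 higher (7.3% of all genes). The largest fall was that of Lsm2 (-1.26 ± 0.39, adjusted p = 0.0521). Prpf19 was lower in all 5 Tuft libraries than in any SecPDG library (-0.84 ± 0.29, adjusted p = 0.0654) and Prpf40b higher (0.94 ± 0.33, adjusted p = 0.0719). The difference between these steps, Enterocyte minus AbsPro against Tuft minus SecPDG, was tested as an interaction. It called 0 of 48 genes by edgeR (0.463% of all genes), with 4 at an unadjusted p under 0.05 (11.4% of all genes) and 0 by DESeq2, so that no gene was shown to change by a different amount in the absorptive and the secretory step.

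In the test over all 6 cell types, 25 of 48 genes differed (52.1%), which is near the 44% of all genes, and DESeq2 called 21. The largest F values were those of Lsm4 (14.5, adjusted p = 2.93e-06), Prpf19 (11.9, adjusted p = 1.75e-05) and Snrpb (11.1, adjusted p = 3.04e-05), and all 3 were called in each of 31 alternatives. By role, 7 of 9 SF3 subunits differed, 3 of 4 proteins specific to U1 or U2, 3 of 6 Sm proteins, 6 of 13 Prp proteins, 3 of 7 in the LSm2-8 ring, 2 of 6 other LSm proteins and 1 of 3 of U2AF. These counts by role rest on few genes, and no test was made of them against the 44%. With DESeq2's size factors in edgeR 16 genes differed, and with TMM factors from abundant genes 14, and no share of all genes is given for these fits.

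Other genes of the pathway were lower too in Enterocyte and EEC. Of 55 other spliceosome genes 21 were lower in Enterocyte (38.2% against 13.7% of all genes) and 11 in EEC (20% against 12.9%). The median log2 fold change was -0.89 and -1.03, against -0.30 and -0.33 over all genes. The largest falls were those of Ddx39b, an RNA helicase of early assembly and export, in Enterocyte (-1.90 ± 0.36, adjusted p = 0.000193) and of Snrnp40, a U5 protein, in EEC (-3.35 ± 0.42, adjusted p = 4.51e-07). In Tuft 1 of the 55 was lower, Snrnp40 (-1.03 ± 0.28), and 1 higher, Snrnp25 of the minor spliceosome (1.98 ± 0.48, adjusted p = 0.00462). Each is 1.82% of the 55, under the 3.5% of all genes called lower and 7.63% called higher there. Of 14 snRNP assembly genes 5 were lower in Enterocyte (35.7%) and 7 in EEC (50%). Prmt5, the methyltransferase that prepares Sm proteins for ring assembly, fell from 1775 ± 211 in Stem to 680 ± 192 in Tuft and 337 ± 113 in Enterocyte (log2 fold change -2.40 ± 0.34, adjusted p = 5.30e-06). Ddx20, a partner of the SMN complex, fell from 663 ± 104 to 86.5 ± 100.1 in EEC (-2.96 ± 0.64, adjusted p = 0.000937).

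SR and hnRNP proteins were lower for 15 of 29 genes in Enterocyte (51.7%) and 12 in EEC (41.4%). Cytosolic ribosomal proteins were lower for 33 of 73 (45.2%) and 49 (67.1%), and proliferation genes for 15 of 15 in both. Of all genes 13.7% were called lower in Enterocyte and 12.9% in EEC. The proliferation genes summed to 162 and 656 CPM in EEC and 581 to 1035 CPM in Enterocyte libraries. The Tuft libraries had 1510 to 2145 CPM and the Stem libraries 3108 to 4153 CPM, with the progenitors from 2158 (AbsPro) to 3501 CPM (SecPDG). The median log2 fold change of the proliferation genes was -2.67 in Enterocyte and -3.54 in EEC. Their part in the values of the core spliceosome genes was not tested.

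Whether the transcripts of these genes were themselves spliced in another way was read from the tables of skipped exons, which give inclusion and skipping reads for Stem and 1 other cell type. Of the skipped exons in core spliceosome genes, 20 were tested in AbsPro, 22 in SecPDG, 25 in Tuft, 24 in Enterocyte and 9 in EEC. By edgeR 0 were called in any of the 5 (0% of all exons tested in each), and 0 had an unadjusted p under 0.05. Over all exons tested, such a p was found for 5 of 4293 in AbsPro, 44 of 5283 in SecPDG and 119 of 5464 in Tuft. In Enterocyte it was 144 of 4756 and in EEC 26 of 1891. With so few small p-values over all exons, the 0 here cannot show that splicing of these genes was unchanged. With limma on the log2 ratio of inclusion to skipping reads, an alternative added after the data were seen, 0 were called, and 1, 3, 1, 10 and 1 had an unadjusted p under 0.05 in that order, against 4.89%, 7.87%, 15.9%, 24.98% and 7.35% of all exons tested. Most of these exons were hardly ever skipped. The exon of Prpf31 at chr7:3636201-3636358, with the smallest such p in Enterocyte (limma, adjusted p = 0.0897), had 0 skipping reads in all Stem libraries and in 4 of 5 Enterocyte libraries, with 154, 121 and 44 inclusion reads in Stem and 8 to 16 in Enterocyte. Where skipping is at 0, that ratio is set by the 0.5 added to each count and by the number of inclusion reads. Libraries in these tables have no names and cannot be tied to those of the gene counts.

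Use of the distal polyadenylation site was tested by limma for 25 transcripts of these genes in AbsPro, 22 in SecPDG, 14 in Tuft, 2 in Enterocyte and 3 in EEC. Of these 0 were called in any comparison, where 0%, 0.0268%, 0.0736%, 0.0598% and 0% of all transcripts tested were called, and 2, 0, 1, 0 and 0 had an unadjusted p under 0.05, against 3.99%, 5.22%, 5.66%, 9.63% and 13.9% of all transcripts tested. No other tool was run on the shares. Sf3b5 had the smallest p, with shares of 0.77, 0.87 and 0.77 in AbsPro against 0.39, 0.58 and 0.57 in Stem (limma, adjusted p = 0.915). Snrpa had shares of 0.03, 0.34, 0.43, 0.17 and 0.46 in Tuft against 0.70, 0.56 and 0.63 in Stem (limma, adjusted p = 0.824). In both genes the libraries of the compared types did not overlap, and neither was called. The depth behind a share is not given in the tables.

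The promoters were read to see which letters genes that moved together have in common. RefSeq promoters (GRCm38.p6), windows of 250 bases before to 50 bases after a start, were found for 40 of the 50 genes. The letters CCGGAAG, known as the core of ETS factor sites, stood on either strand in the windows of 15 of the 40 (37.5%), against 19.1% of 10025 genes at the minimum mean and 9.93% of 27025 genes. They stood in 8 of the 16 matched genes that were lower in Enterocyte, and no share is given for all genes lower there. Lsm5, Prpf4b, Prpf6, Sf3b6, Snrpc, Snrpe and Snrpg, which were not called in Enterocyte, held the letters as well. All 3 SF3a subunits held them, and their sites are shown with those of Sf3b2, the most abundant SF3 subunit, and Prpf19, as 24 bases each of genes that were lower in Enterocyte, with the letters in capitals.
Sf3a1 (chr11:4160339-4160362, plus strand): gggcgggaCCGGAAGtgctcccgc
Sf3a2 (chr10:80798651-80798674, plus strand): ctttgctcCCGGAAGggatcgctt
Sf3a3 (chr4:124714763-124714786, minus strand): ccgcgtgtcCCGGAAGtgtcttgg
Sf3b2 (chr19:5295453-5295476, minus strand): ttacgcaaCCGGAAGtttctggaa
Prpf19 (chr19:10895155-10895178, plus strand): agcgctcgCCGGAAGaagccgagc
The centres of the letters lay at -4, -73, -87, -8 and -65 bases from the RefSeq start in that order. Of the other motifs searched on both strands, ATGGCGG, the core of the YY1 site, stood in 7 of the 40 genes (17.5%) against 8.97% of genes at the minimum mean. The E-box stood in 4 (10% against 11.3%), the CRE in 3 (7.5% against 3.58%), the TATA box in 3 (7.5% against 9.07%) and the NRF1 site in none, against 2.26%. The motifs were chosen after expression values were seen. A match is a run of letters and not a shown site, and no test was made of these shares.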

How the data were processed

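RNA of sorted crypt cells was amplified with a low-input kit and sequenced as 100-base pairs. Per the labels and the study's methods, the authors aligned trimmed reads to mm10 with STAR 2.5.2a and deposited counts per gene made by HTSeq 0.6.1p1 without strand. The authors also deposited tables of skipped exons (inclusion and skipping reads per library, joined in 1 cell, unit other) and of distal polyadenylation site use as a fraction with 2 decimals, and their own fold changes and p-values in these tables were not used. The groups came from the labels. The genes and lists were chosen with earlier results of these data known.

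Genes were tested with edgeR 4.0.16 (R 4.3.3, filterByExpr, TMM factors, quasi-likelihood F test, all 22 libraries in 1 fit), and called at an adjusted p under 0.01 with a mean of at least 50 normalized counts. A ± beside a fold change is the SE, and beside a level the SD. Exons were tested with edgeR on reads (mean of at least 10) and shares with limma 3.58.1 on the log2 ratio of distal to proximal use with 0.01 added to both, both at an adjusted p under 0.05. Alternatives were DESeq2 1.42.0, other scalings, filters and fits, thinned counts, and each library left out. The 5 lines of each count file that name no gene, 53.9% to 91.6% of a library's entries, were left out. Genes named were, in each comparison, the 3 called genes with the largest rise and fall, the most abundant of each role, the 3 largest F values over the cell types, every gene under the minimum mean, near-identical paralogs, and of the other lists the largest called rise and fall. Other members named under their role were chosen after their values were seen. Coordinates are 1-based on GRCm38, the assembly of mm10, and promoters are from RefSeq. Exon lengths join all exons of a gene in GENCODE and can differ from the gene models behind the counts. Levels per kb, the ranks by them and the background estimates depend on these lengths. Intervals and floors cover counting error only. Values of 1 gene of the set are not reported here, and it stays in the counts and medians.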

Additional observations from a re-analysis of the deposited data

Results flagged for a closer look

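In 6 of 45 groups of 4 or 5 libraries examined, 1 library stood far from the others of its cell type by Dixon's criterion. Chance alone gives this in about 1 in 20 groups. The groups reuse the same libraries over several genes, so the 6 are not independent of each other. Prpf19 had 1985 normalized counts in Tuft 5, with the other 4 Tuft libraries between 1216 and 1292, and Sf3b2 had 8219 in the same library against 4907 to 5590. Tuft 5 also had the most counts on genes of the Tuft libraries (20892532) and the fewest reads outside genes (43.9%), and its part in these values was not tested. Without Tuft 5, 5 core spliceosome genes were called lower in Tuft than in Stem, where 0 were called with all libraries, and 11 were called without EEC 1 and 7 without EEC 2, which are not in that comparison. SecPDG 1 had the lowest Sf3b2 (7321, others 8489 to 8552.8) and the lowest Snrpa (616, others 877 to 903) of the SecPDG libraries. Snrpb stood at 2444 in SecPDG 4, with the others between 1976 and 2042. Snrpf had 23.4 normalized counts in Enterocyte 1 against 8.31 to 12.5 in the others, on few counts of a gene whose exons mostly lie under genes of the opposite strand.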

How the results depend on the processing

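Fits that changed a count of called core spliceosome genes by over 1.5 times are given here, and the cause was not tested. In Tuft against Stem, 0 became 8 with DESeq2, 2 with DESeq2 size factors or upper-quartile factors, 9 with library totals, 3 with no filter, 12 with the compared cell types alone, 4 with TMM factors from abundant genes, 14 without the 4 libraries with most reads outside genes and 14 at an adjusted p under 0.05, and 0 to 11 with 1 library left out (of the compared types, 1 without Stem 3 or Tuft 4 and 5 without Tuft 5, and of others, 11 without EEC 1, 7 without EEC 2, 4 without Enterocyte 1, 3 without SecPDG 2, 2 without AbsPro 1, AbsPro 3 or Enterocyte 4 and 1 without Enterocyte 3). In Enterocyte against Stem, 21 became 12 with DESeq2 size factors, upper-quartile factors or TMM factors from abundant genes, 13 with library totals and 11 without the 4 libraries, and 12 to 32 with 1 library left out (12 without Stem 1, 13 without Enterocyte 3, 32 without EEC 1). In EEC against Stem, 18 became 1 with the compared types alone and 15 to 23 with 1 library left out. In Enterocyte against AbsPro, 8 became 4 with upper-quartile factors, with the compared types alone or with TMM factors from abundant genes, 0 without the 4 libraries and 22 at an adjusted p under 0.05. With 1 library left out it became 0 to 29, namely 14 without AbsPro 1, 0 without AbsPro 2, 17 without AbsPro 3, 15 without Enterocyte 1, 3 without Enterocyte 2, 2 without Enterocyte 3, 13 without Enterocyte 4, 23 without Stem 2, 24 without Stem 3, 5 without Tuft 2, 22 without Tuft 4, 29 without EEC 1 and 18 without EEC 2. In Tuft against SecPDG, 0 became 3 with DESeq2, 2 with the compared types alone and 1 without the 4 libraries. Over the 6 cell types, 25 became 16 with DESeq2 size factors and 14 with TMM factors from abundant genes, and 19 to 33 with 1 library left out. The distal shares in EEC went from 0 to 1 (Lsm12) without EEC 1, a range of 0 to 1. Of 419 alternatives of the counts 364 stayed within 1.5 times. These include counts of 0 that stayed at 0, as in AbsPro, SecPDG, the exons and most distal shares, so the 364 is no measure of stability. Of 381 alternatives of 12 named values 355 kept the call, 26 lost it and 0 changed direction. The 12 were picked as the largest called values, and those of Lsm4, Prpf19 and Snrpb over the 6 cell types have no direction. Where 1 library was left in a group, it was assumed to vary like the others.

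With the replicate number as a block, 11 genes were called in Tuft, 30 in Enterocyte, 20 in EEC and 25 in Enterocyte against AbsPro. The numbers are not shown to pair the libraries, since 9 of 44 pairs with the same number had a correlation of deviations over 0.1 and 4 of 22 libraries correlated best with their own number.

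TMM from abundant genes, the fit without the 4 libraries and leaving out libraries of cell types outside a comparison were chosen after the data were seen. The EEC values rest on 2 libraries, with 4122122 and 13132315 counts on genes.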
